A study of Homo sapiens and Mus musculus with 21 samples.

Results

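DRACH is the 5-letter sequence in which N6-methyladenosine (m6A) is usually found in messenger RNA: A, G or T first, then A or G, then the methylated A, then C, then A, C or T. The sites described here have A, not G, in the position just before the methylated A. They are called DAACH sites below, and DRACH sites with G there are called DGACH sites. The choice used the listed motif letters alone and took 9 of the 18 DRACH motifs, those that start with AAAC, with GAAC or with TAAC and end in A, C or T. It gave 70163 of the 207671 entries in the authors' 5 m6A lists. These are 33128 of 90876 distinct positions in human cells and 20070 of 59636 in mouse cells.

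The lists come from miCLIP, in which an antibody against m6A is crosslinked to RNA and the crosslink shows up as a base substitution in the sequenced copy, beside the methylated A. There were 2 libraries of HEK293T, a widely used transformed line from human embryonic kidney, with the PCIF1 gene knocked out (KO), and 1 of wild-type HEK293T (WT). A further 2 libraries came from wild-type mouse embryonic fibroblasts (MEF), for which the labels give no age or strain. All 5 used polyadenylated RNA and the same antibody, and the labels name no other treatment or allele. They do not say whether the KO libraries came from separate clones or any replicates from separate cultures. Each permutation p-value below thus measures only the spread between libraries, which may be technical. The per-site p-values of Fisher's exact test compare the reads of 1 library with those of another and take in no spread between libraries. Of 8 fibroblast markers and 5 blood markers, 0 held a DAACH site in a HEK293T list. Of 7 HEK293T and neuronal-type markers, 2 held one in KO replicate 1, 3 in KO replicate 2 and 3 in WT. A DRACH site of either class stood in 2, 4 and 4 of them. Among the fibroblast markers 1 held a DGACH site in WT, and among the blood markers 1 held a DGACH site in KO replicate 2. IRS4 and INA held DAACH sites in all 3 lists. The MEF label could not be set against markers, since no mouse gene names were given.

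In messenger RNA, m6A is written during transcription by a complex built around METTL3 and METTL14, with WTAP, VIRMA, ZC3H13 and RBM15 among its partners. The complex is known to favour G over A just before the methylated base. YTH-domain proteins bind the mark, and it is best known for shortening the life of transcripts and for gathering near stop codons and in long exons. PCIF1 writes a different mark, m6Am, at the first transcribed base beside the cap, and the same antibody binds it.

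Sequences are shown first because the base before the methylated A is what defines the sites. Each line has 21 bases of the GRCh38.p14 RefSeq start windows, 5′ to 3′ on the transcribed strand, with the 5 motif letters in capitals and the methylated A in their middle. The first 3 are DAACH sites that stood in all 3 HEK293T lists, one with each possible first base. All 3 lie upstream of the RefSeq start that names the window, at 149, 146 and 153 bases, as does the RPS15 site, at 17 bases.
CREBZF window, chr11:85663740-85663760, minus strand: accatgtcAAACTtaccttag
MZT2A window, chr2:131492533-131492553, minus strand: gcgcccacTAACTgttgggct
P2RY11 window, chr19:10111530-10111550, plus strand: atgagcttGAACCtcaggagg
DDX3X window, chrX:41334191-41334211, plus strand: tcgcggtgGAACAaacactcg
RPS15 window, chr19:1438369-1438389, plus strand: tctcgcgaTAACTgcgcaggc
SMC4 window, chr3:160399668-160399688, plus strand: cggagccgAAACAccggtagg
The last 3 stood in the WT list only and lie in regions the authors listed as m6Am. They were chosen after their values were seen, as those in both a start window and an m6Am region with most substituted reads in WT. Start windows, of 250 bases before to 50 after a RefSeq start, were the only sequence around human sites used here. Each of the 600 matches of a listed position to a window on its strand carried the listed motif there, so the listed position is the C and the methylated A is 1 base upstream.

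DAACH sites were about 1 in 3 of every list, in human and mouse cells alike. Their share was 34.5% in KO replicate 1 (14045 of 40768 sites, exact 95% interval 34.0 to 34.9%), 34.5% in KO replicate 2 (16453 of 47644, 34.11 to 34.96%) and 34.7% in WT (15164 of 43663, 34.3 to 35.2%). In MEF it was 32.2% in replicate 1 (11963 of 37141, 31.7 to 32.7%) and 32.6% in replicate 2 (12538 of 38455, 32.1 to 33.1%). The KO and WT intervals overlapped, and KO against WT, 2 libraries against 1, was not tested. HEK293T lists averaged 34.6% ± 0.143 (SD, n = 3) and MEF lists 32.4% ± 0.279 (SD, n = 2). Each HEK293T list exceeded each MEF list, by 1.85 to 2.52 percentage points. The exact two-sided permutation test of this difference gave p = 0.1, the smallest that 3 against 2 libraries allow (0.157 adjusted over the 22 tests computed). Cell type and species cannot be told apart in it. Intervals here cover counting error only, as the lists count reads and not molecules.

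The letters themselves give a yardstick, added after other values were seen. In the 35116 RefSeq start windows, read on the transcribed strand, the 9 DAACH motifs occurred 72141 times and the 9 DGACH motifs 87504 times. DAACH was thus 45.2% of the DRACH letters present, against 34.8% of the 600 listed matches in those windows (209). At least 1 DAACH motif stood in 78.8% of windows and at least 1 DGACH motif in 89.9%. Most of each window lies before the RefSeq start, so many of the letters counted lie outside the annotated transcript. All windows were counted, whether or not they held a listed site. The 209 matches came from 176 DAACH sites, as a site was counted again in each window that held it. The gap between the shares was not tested, and it does not measure how often DAACH motifs in transcripts were listed. The counts describe letters near starts only, and other parts of transcripts were not used here.

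DAACH sites were shallower and carried fewer substituted reads than DGACH sites. Each list gives a site's number of reads and, among them, its number of substituted reads. The median DAACH site had 33 reads in KO replicate 1, 38 in KO replicate 2, 27 in WT, and 32 and 30 in the MEF replicates. The median DGACH site had 39, 44, 33, 41 and 40 reads in the same order. DAACH sites carried on average 4.33, 4.64, 4.10, 4.26 and 4.25 substituted reads, against 4.90, 5.36, 4.70, 4.93 and 4.96 at DGACH sites. DAACH was lower in 5 of 5 libraries by both measures, with a mean difference of -7.40 ± 1.95 reads (SD, n = 5; exact sign-flip permutation test over libraries, two-sided, p = 0.063, adjusted 0.106) and of -0.655 ± 0.0708 substituted reads (SD, n = 5; same exact p). With 5 libraries this test cannot go below 0.063, so no contrast tested with it below could pass 0.05.

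The weakest sites were the richest in DAACH. Every listed site had at least 2 substituted reads, and 30.9 to 38.2% of DAACH sites had exactly 2, against 25.3 to 32.5% of DGACH sites. At the other end, 5.68 to 8.22% of DAACH sites and 8.46 to 11.4% of DGACH sites had at least 10. Seen from the whole lists, DAACH made up 37.5 to 39.2% of sites with 2 substituted reads, 31.98 to 34.8% of those with 3 or 4, and 28.3 to 31.8% of those with 5 to 9. It then made up 25.7 to 28.8% of sites with 10 to 19 and 18.7 to 25.9% of sites with 20 or more. The share also varied with depth, between 37.7 and 39.6% at 4 to 9 reads and between 29.5 and 31.97% at 200 reads or more.

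**Figure D1:**
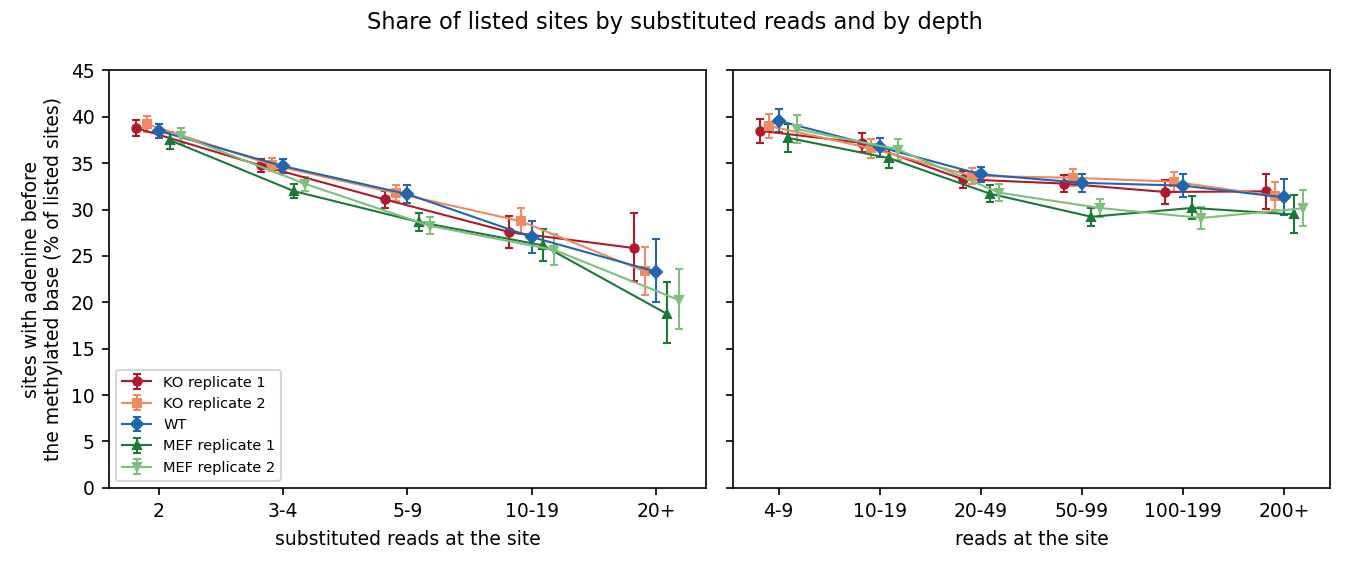
The y axis is the percent of listed sites that are DAACH, against substituted reads per site (left) and reads per site (right), for each of the 5 libraries, with exact 95% binomial intervals as bars. On the left the points lie at 37.5 to 39.2% for sites with 2 substituted reads and at 18.7 to 25.9% for sites with 20 or more, and on the right most of the decline lies below 50 reads.

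Of the reads at DAACH sites, about 7 in 100 carried the substitution, slightly fewer than at DGACH sites. Reads summed over DAACH sites came to 880929, 1207985 and 888355 in KO replicate 1, KO replicate 2 and WT, and to 733863 and 773944 in the MEF replicates. The substituted share of these pooled reads was 6.90%, 6.31% and 7.001% in KO replicate 1, KO replicate 2 and WT, and 6.95% and 6.88% in MEF. At DGACH sites it was 7.30%, 6.88%, 7.43%, 7.35% and 7.21% in the same order. The difference averaged -0.422 ± 0.0902 percentage points (SD, n = 5), was below 0 in 5 of 5 libraries, and had an exact sign-flip permutation p = 0.063 (adjusted 0.106). Deep sites on the mitochondrial genome, described below, moved this value: without that genome, a comparison added after the data were seen, the DAACH share was 7.12%, 6.52%, 7.27%, 7.05% and 6.97% and the difference averaged -0.257 ± 0.0831 points, still below 0 in 5 of 5 (same exact p). KO replicate 2, the deepest library, had the lowest share in both classes.

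The direction depended on how sites were averaged. The median of the sites' own substituted shares, which counts shallow and deep sites alike, was 11.1%, 10% and 10.5% for DAACH sites in KO replicate 1, KO replicate 2 and WT, and 10.7%, 10% and 10.5% for DGACH sites. DAACH minus DGACH by that median averaged 0.169 points over the 5 libraries, above 0 in 3 and at 0 in the other two (exact permutation p = 0.25). The rule of at least 2 substituted reads sets a floor on a site's share that is higher the fewer its reads, and DAACH sites had fewer reads. Compared at like depth, DAACH was lower: at 50 to 99 reads the pooled share was 6.79 to 6.87% at DAACH sites and 7.44 to 7.54% at DGACH sites. At 200 reads or more it was 3.67 to 4.08% and 4.32 to 4.64%, and without the mitochondrial genome 3.94 to 4.23% and 4.32 to 4.66%. In each of the 5 depth classes from 10 reads up DAACH was lower in 5 of 5 libraries, and at 4 to 9 reads in 4 of 5, with and without the mitochondrial genome.

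**Figure D2:**
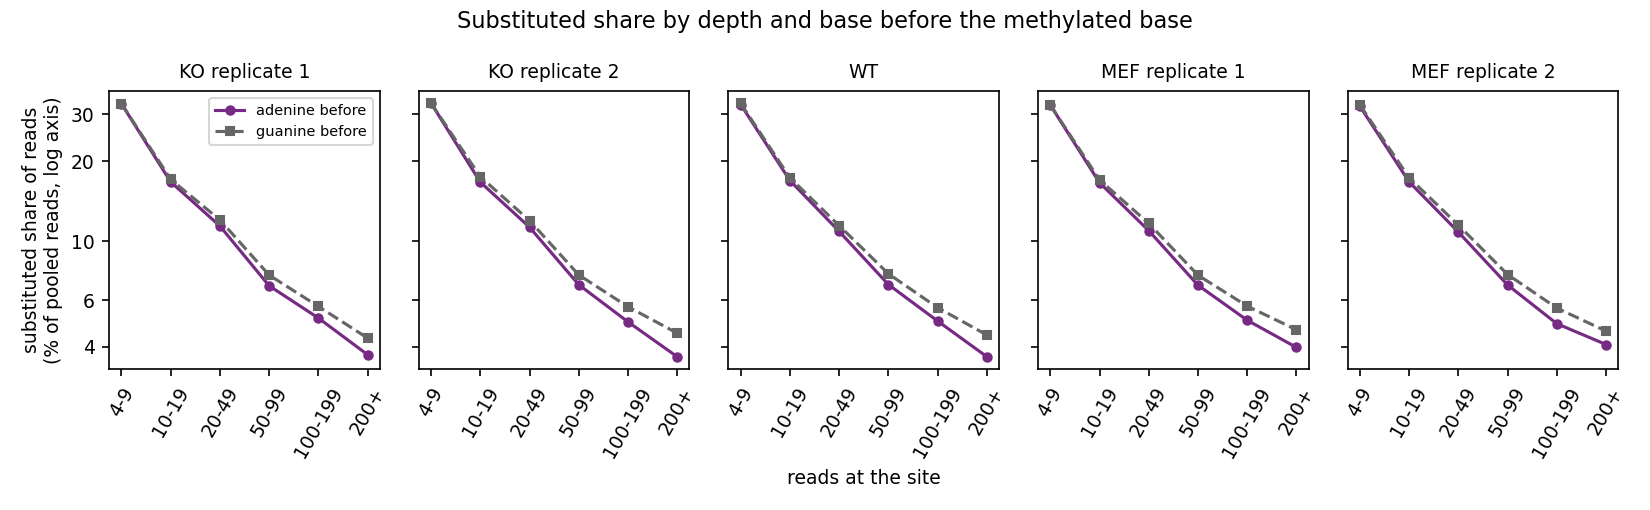
Each panel is 1 library and plots the substituted percent of pooled reads (log axis) against reads per site, for DAACH sites (purple) and DGACH sites (grey). Both fall with depth, the curves start together at 4 to 9 reads, and the DAACH curve lies below the DGACH curve from 10 reads up, at 3.67 to 4.08% against 4.32 to 4.64% at 200 reads or more.

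Sites found in every list of a species gave the same order on identical positions and similar depth. The 3370 DAACH positions in all 3 HEK293T lists had pooled shares of 5.94%, 5.76% and 5.96% in KO replicate 1, KO replicate 2 and WT, against 6.64%, 6.53% and 6.67% at the 8206 such DGACH positions. Median depths were 92, 112 and 90 reads for DAACH and 88, 108 and 87 for DGACH. The 4431 shared MEF positions had 6.32% and 6.10%, against 6.94% and 6.77% at 11529 DGACH positions. Among HEK293T positions with at least 50 reads in all 3 lists, the median pooled share was 5.74% over 2254 DAACH sites and 6.12% over 5296 DGACH sites. At or above 20% stood 8 of those DAACH sites and 59 of those DGACH sites.

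Within DAACH, G was the most frequent first base and T the most frequent last base. GAACT was the leading motif, with 30.5 to 34.7% of DAACH sites over the 5 libraries, followed by GAACA with 20.1 to 20.8% and AAACT with 17.6 to 19.9%. AAACA held 10.7 to 11.7%, TAACT 5.18 to 5.97%, GAACC 4.71 to 5.45%, TAACA 3.23 to 3.99%, AAACC 2.03 to 2.50% and TAACC 0.548 to 0.878%. By first base, G stood in 56.1 to 59.6% of DAACH sites, A in 30.5 to 33.6% and T in 9.75 to 10.5%. By the fifth and last base, T stood in 56.0 to 57.8%, A in 34.5 to 35.8% and C in 7.63 to 8.55%. The order of the bases was the same in all 5 lists at both positions.

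The outer bases also went with the share of DAACH among listed sites. Among all sites with G first and T last, 42.9 to 44.9% were DAACH. With G first the share was 28.6 to 31.5% when A was last and 22.9 to 25.8% when C was last. With T first it lay between 20.1 and 27.6% whatever the last base, and with A first between 27.6 and 38.7%. No test was run on these shares, which share their sites' motif letters. How often each motif occurs in transcripts was not counted here.

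DAACH sites that began with G were the most substituted, and those that began with T the least. The pooled share was 7.26%, 6.74% and 7.34% for G first in KO replicate 1, KO replicate 2 and WT, and 7.30% and 7.24% in MEF. For A first it was 6.69%, 6.04%, 6.85%, 6.59% and 6.51%, and for T first 5.58%, 4.96%, 5.67%, 5.96% and 5.86%, in the same library order. G minus A averaged 0.640 ± 0.103 percentage points, G minus T 1.57 ± 0.197 and A minus T 0.930 ± 0.265 (SD, n = 5). Each was above 0 in 5 of 5 libraries with an exact sign-flip permutation p = 0.063 (adjusted 0.106). Without the mitochondrial genome they averaged 0.441, 1.06 and 0.623 points, each still above 0 in 5 of 5. By the median of site shares the 3 contrasts averaged -0.00692, -0.295 and -0.288 points. They were below 0 in 1, 3 and 3 of 5 libraries and exactly 0 in the rest. Sites with G first also had the most reads, with median depths of 29 to 42, against 25 to 33 for A first and 23 to 30.5 for T first. On the 3370 positions common to the HEK293T lists, where T-first sites were the deepest, the order was kept. There the shares were 6.20%, 6.06% and 6.25% for G first, 5.75%, 5.52% and 5.77% for A first, and 4.45%, 4.14% and 4.30% for T first in KO replicate 1, KO replicate 2 and WT. Without the mitochondrial genome the T-first shares there were 5.09%, 4.75% and 5.02%, and the order was the same.

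The fifth base gave smaller differences with less settled directions. The pooled share in KO replicate 1, KO replicate 2, WT and the MEF replicates was 6.82%, 6.33%, 7.02%, 6.82% and 6.72% with T last. With A last it was 7.10%, 6.37%, 7.06%, 7.24% and 7.23%, and with C last 6.77%, 5.91%, 6.56%, 6.96% and 6.82%. T minus A averaged -0.260 ± 0.215 points (SD, n = 5; below 0 in 5 of 5; exact permutation p = 0.063, adjusted 0.106), but it was 0.245 points among sites with at least 20 reads and 0.357 among those with at least 5 substituted reads, and -0.646 without the mitochondrial genome. A minus C averaged 0.396 ± 0.0884 points and was above 0 in 5 of 5, but it was -0.365 by the median of site shares. Sites with T last were the deepest, with median depths of 33 to 47 reads, against 22 to 30 for A and 19 to 22 for C.

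The A against T contrast at the fifth base was then read at a fixed first base, a split made after the values were seen. It was positive with G first. With A or T first its sign depended on the mitochondrial sites and on how sites were averaged. With G first, A minus T was 0.903, 0.693, 0.753, 0.885 and 0.967 points in KO replicate 1, KO replicate 2, WT and the MEF replicates. With A first it was -0.438, -0.676, -0.703, -0.148 and -0.208 points. With T first it was negative in 4 of 5 libraries, with a mean of -0.538 points (exact permutation p = 0.1875). Without the mitochondrial genome the contrast averaged 0.929 points with G first (above 0 in 5 of 5), 0.06251 with A first (4 of 5) and 0.606 with T first (5 of 5). By the median of site shares it was above 0 at all 3 first bases, at 1.61, 1.92 and 2.28 points. Such medians count shallow sites fully, and at each first base A-last sites had fewer reads than T-last sites. Among sites with at least 20 reads, mitochondrial ones included, the contrast was 0.425, -1.12 and -1.05 points with G, A and T first. Among those with at least 5 substituted reads it was 0.669, -1.82 and -1.59 points. Of the 7 motifs that held at least 3% of DAACH sites in every list, GAACA had the highest pooled share in 5 of 5 lists, at 7.23 to 7.95%. TAACA had the lowest in 4 of 5, at 4.44 to 6.08% over all 5. Without the mitochondrial genome GAACA was again the highest in 5 of 5, at 7.29 to 8.10%, and TAACT was the lowest in 5 of 5, at 5.56 to 6.26%.

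**Figure D3:**
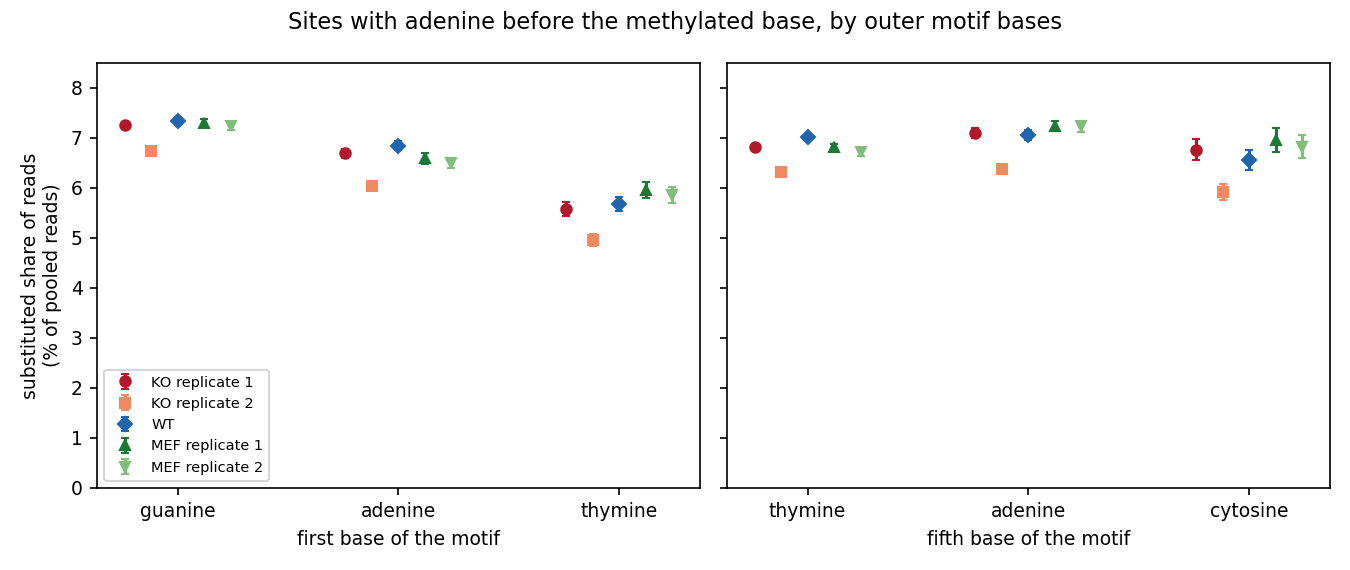
The substituted percent of pooled reads at DAACH sites is plotted by first base (left) and the fifth base (right), 1 point per library with exact 95% binomial intervals as bars. On the left the 5 points of guanine (6.74 to 7.34%) lie above those of thymine (4.96 to 5.96%), while on the right the bases overlap.

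DAACH sites recurred between lists less often than DGACH sites. Of KO replicate 1's DAACH sites, 34.9% stood at the same position in the WT list (4902 of 14045, exact 95% interval 34.1 to 35.7%), against 42.8% of its DGACH sites. For KO replicate 2 in WT the shares were 34.0% and 41.4%. WT sites were found in KO replicate 1 at 32.3% for DAACH and 40.2% for DGACH, and in KO replicate 2 at 36.9% and 45.3%. Between the KO replicates, 32.9% of replicate 2's DAACH sites stood in replicate 1 and 38.5% the other way. Between the MEF replicates, 35.3% of replicate 2's stood in replicate 1 and 37.0% the other way. The share of KO DAACH sites found in WT thus lay between the 2 shares found between KO replicates. In the other direction, the share of WT sites found in KO replicate 1 (32.3%) lay below both. That found in KO replicate 2 (36.9%) lay between them. Shares are given both ways because the lists differ in length.

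The gap between the classes was smaller among sites with like numbers of substituted reads. DAACH minus DGACH overlap was between -9.14 and -7.23 percentage points in 8 of 8 directions over all sites. It was between -4.35 and -2.35 points at 2 substituted reads, between -6.12 and -4.32 at 3 or 4, between -5.90 and -2.78 at 5 to 9 and between -3.69 and -0.0674 at 10 or more, again below 0 in 8 of 8. Of DAACH sites with 2 substituted reads, 8.79 to 12.1% recurred, and of those with at least 10, 85.9 to 94.5%. DGACH gave 11.1 to 16.0% and 89.6 to 95.3%. Among DAACH sites, G first recurred at 37.6 to 43.4%, A first at 27.4 to 33.1% and T first at 19.6 to 27.7%. By the fifth base T recurred at 38.7 to 44.1%, A at 27.1 to 33.0% and C at 12.6 to 20.7%. In all, 10.2% of the distinct HEK293T DAACH positions and 14.2% of the DGACH positions stood in all 3 lists. In both MEF lists stood 22.1% of DAACH and 29.1% of DGACH positions.

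**Figure D4:**
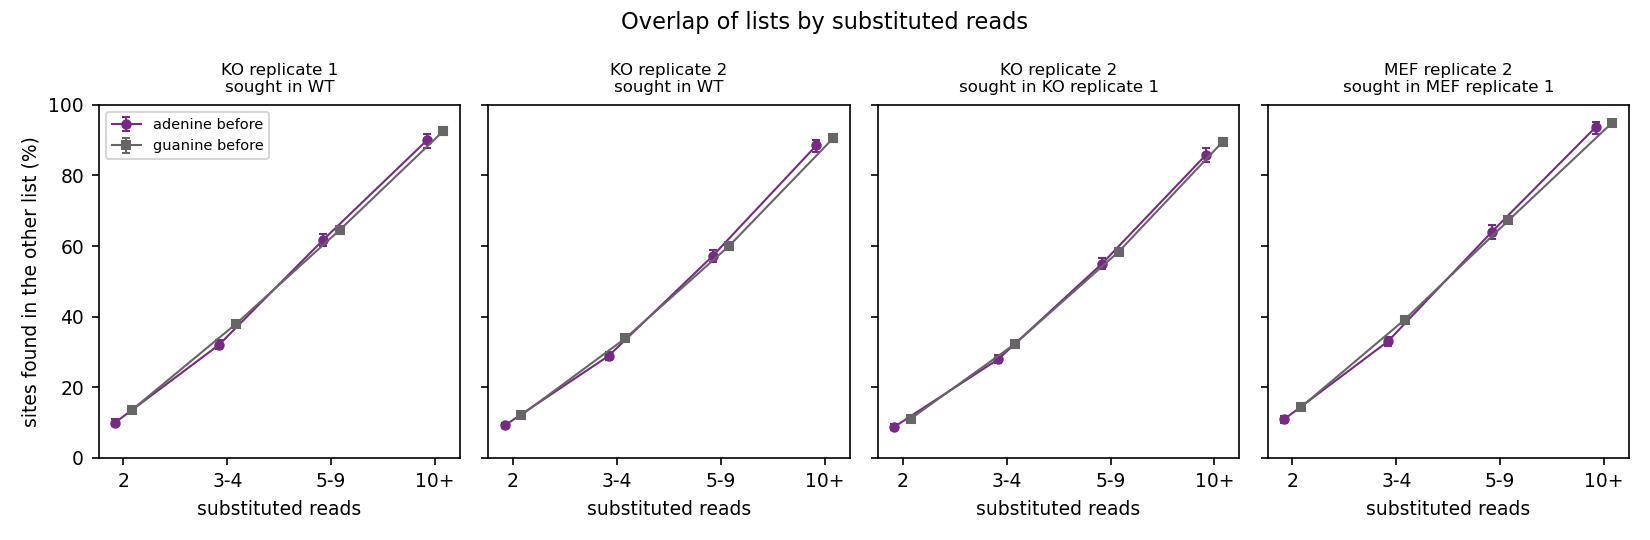
Each panel takes 1 list and plots the percent of its sites found at the same position in a second list, against substituted reads per site, for DAACH (purple) and DGACH (grey) sites with exact 95% binomial intervals. At 2 substituted reads overlap is 8.79 to 12.1% for DAACH and 11.1 to 16.0% for DGACH, and at 10 or more it is 85.9% or more for both, and the purple points lie on or just below the grey.

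No DAACH site differed in its substituted share between KO and WT after adjustment. Fisher's exact test was run on substituted and other reads at each position that both lists held with at least 20 reads, and p-values were adjusted over all DRACH sites by the Benjamini-Hochberg method. KO replicate 1 against WT called 0 of 4163 DAACH sites, beside 0% of all 13894 DRACH sites. KO replicate 2 against WT called 0 of 4830, beside 0% of 15955. The smallest adjusted p of Fisher's test was 0.610 and 0.390. Unadjusted p under 0.05 was met by 107 and 148 DAACH sites, beside 3.12% and 3.35% of all sites. KO replicate 2 against KO replicate 1 gave 131 of 4676 beside 3.23%, and MEF replicate 2 against MEF replicate 1 gave 71 of 3819 beside 2.46%, both again with 0 called after adjustment (0%). These tests compare libraries and not genotypes. They also see only positions listed in both, so a site lost from 1 list does not enter.

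The sites of smallest p show the scale of change that was seen without passing. At a site in ZNF24, a zinc finger transcription factor, on chromosome 18 at 35337255 (AAACT), 58 of 278 reads were substituted in KO replicate 1 and 29 of 288 in KO replicate 2, against 20 of 228 in WT. KO replicate 1 stood apart from both others, at 20.9% against 10.1% in KO replicate 2 and 8.77% in WT. In MTMR3, a phosphoinositide phosphatase, chromosome 22 at 30019892 (GAACT), the share was 4.17% in KO replicate 1 and 27.8% in WT. In PELP1, a nuclear receptor coregulator, chromosome 17 at 4672727 (AAACT), it was 4.12% and 14.0%. In SCD, the stearoyl-CoA desaturase, chromosome 10 at 100364514 (GAACT), it was 10.6% and 2.30%. For KO replicate 2 the smallest p fell in KCTD12, a GABA-B receptor subunit, chromosome 13 at 76886361 (GAACT), with 18.3% against 2.78% in WT. ROBO1, EDC3 and DAG1 were also higher in KO replicate 2 (27.6%, 15.4% and 22.5%, against 5.63%, 3.06% and 5.95% in WT), while HSP90AA1 was lower (1.62% against 6.49%). Differences of this size also stood between the KO replicates, as in RABEP1 (2.70% in replicate 2 and 15.1% in replicate 1) and KHSRP (36.4% and 8.33%).

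The DAACH sites with most substituted reads are described next, with their values in each HEK293T library. In SLC1A5, a glutamine transporter, the AAACT site on chromosome 19 at 46788267 (minus strand, GRCh38) had 80 of 450 reads substituted in KO replicate 1, 109 of 572 in KO replicate 2 and 98 of 561 in WT. Those are 17.8%, 19.1% and 17.5%, with overlapping intervals. In SFPQ, a splicing factor of paraspeckles, the GAACT site on chromosome 1 at 35190857 had 70 of 868, 87 of 1037 and 72 of 760 reads substituted. In TUBB4B, a beta-tubulin, the GAACA site on chromosome 9 at 137242986 had 38 of 183, 103 of 497 and 85 of 378, or 20.8%, 20.7% and 22.5%. This was the only site named both for its substituted reads and for its share.

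In IRS4, an insulin receptor substrate abundant in this line, the GAACA site on the X chromosome at 108734872 had 52 of 706 reads substituted in KO replicate 1, 88 of 1022 in KO replicate 2 and 75 of 875 in WT. MARCKSL1, an actin-binding protein, stood at 9.92%, 12.3% and 9.94% at 32334557 of chromosome 1, and TUBB, another beta-tubulin, at 4.21%, 4.72% and 4.13% at 30723956 of chromosome 6. ZNF503, a zinc finger repressor, had 3.37%, 4.34% and 5.93% at 75399039 of chromosome 10. SRRM2, a scaffold of nuclear speckles, had 14.2%, 11.3% and 7.74% at 2767335 of chromosome 16. SEPHS2, which makes selenophosphate, had 15.5%, 11.04% and 11.7% at 30444826 of chromosome 16. Of these, the SRRM2 intervals of KO replicate 1 (10.8 to 18.2%) and WT (5.53 to 10.5%) did not overlap, and the site was not called by Fisher's test (0% of all sites called).

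The deep sites with the highest substituted shares follow. ARL10, a small GTPase of the ARF family, held a TAACT site on chromosome 5 at 176372694 with 26 of 59 reads substituted in KO replicate 1, 6 of 50 in KO replicate 2 and 23 of 74 in WT. KO replicate 2 lay below both others, and KO replicate 2 against KO replicate 1 had an adjusted p = 0.484 by Fisher's exact test. TMED2, a cargo receptor between the endoplasmic reticulum and the Golgi, had 23.7%, 22.2% and 27.9% at 123596777 of chromosome 12 (AAACA). MAP3K21, a mixed-lineage kinase, had 19.1%, 31.9% and 21.5%, and ZBTB33, which binds methylated DNA, had 24.2%, 26.0% and 15.6%. ALDH1B1, a mitochondrial aldehyde dehydrogenase, had 21.1%, 23.3% and 18.9%. TRMT5 and FTSJ3 are themselves RNA methyltransferases, of transfer RNA and of ribosomal RNA precursors. Their GAACT sites stood at 18.3%, 25.4% and 19.6% and at 20%, 24.3% and 18.1%. ADPGK (13.6%, 26.1% and 14.7%) and PCLAF (12.1%, 22.5% and 23.6%) complete the group.

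In MEF, 2 of the 5 DAACH sites with most substituted reads had over 40% of their reads substituted in both replicates. On mm10 chromosome 9, the GAACA site at 71724816 had 102 of 230 reads substituted in replicate 1 and 104 of 250 in replicate 2, or 44.3% and 41.6%. Also on chromosome 9, the GAACA site at 44716397 had 93 of 190 and 85 of 182, or 48.9% and 46.7%. Both come near 50%, the highest share that any list holds. The site with most substituted reads was a TAACA on chromosome 17 at 39848165, with 254 of 2199 and 216 of 2212 reads. A GAACT on chromosome 12 at 8498439 had 16.6% and 10.4%, and a TAACT on chromosome 16 at 10960686 had 20.3% and 17.4%. Mouse genes are not named here.

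DAACH sites were spread over 5850 or more genes in each HEK293T list, most of which also held DGACH sites. One gene could be named for 12847 of the DAACH sites in KO replicate 1, 15070 in KO replicate 2 and 13922 in WT, or 91.5 to 91.8%. Those sites lay in 5850, 6307 and 6055 genes, with a median of 2 sites a gene. Of these genes 81.9%, 82.7% and 81.6% also held a DGACH site, which left 1060, 1091 and 1117 with DAACH sites alone. Of a list's genes with a DAACH site, 69.5 to 75.2% had one in another HEK293T list, against 79.9 to 83.7% for DGACH. Sites are placed in a gene's span only, and whether they lie in exons, introns or untranslated regions was not analysed here. In these bulk samples fewer cells of a type and less RNA per cell cannot be told apart, and a gene's site number also follows its reads.

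The genes with most DAACH sites in WT held 19 or more of them. SPEN, a transcriptional corepressor (chromosome 1, 15847707 to 15940456), held 12 in KO replicate 1, 34 in KO replicate 2 and 34 in WT. KO replicate 1 was the low library, while its DGACH sites in SPEN, at 48 beside 54 and 53, were nearly as many as in the others. IRS4 held 22, 25 and 33 DAACH sites, MKI67, the proliferation antigen coating mitotic chromosomes, 21, 31 and 33, and SRRM2 23, 32 and 26. CENPF, a kinetochore protein, held 18, 24 and 21, and TASOR2, a relative of the HUSH silencing subunit TASOR, 20, 24 and 20. CDK12, a kinase of elongating RNA polymerase, held 10, 10 and 19, and PHF3, which binds that polymerase, 9, 12 and 19. TUG1, best known as a long non-coding RNA, held 17, 21 and 19.

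The listed balance of DAACH and DGACH varied between genes. Over the 180 genes with at least 15 sites in each HEK293T list, a set defined after the data were seen, the DAACH share had a median of 36.5% and ran between 10 and 75%. Its quartiles were 28.6 and 45.9%. The share exceeded 50% in all 3 lists in 8 genes and was under 20% in all 3 in 4 genes. Those lists have many positions in common. How much of the spread would come from counting error on so few sites a gene was not tested. The genes named next are the extremes of the 180. The highest were HNRNPU, a nuclear matrix RNA-binding protein, with 17 of 21, 12 of 16 and 10 of 15 sites in KO replicate 1, KO replicate 2 and WT, and OGT, the enzyme that adds O-GlcNAc, with 15 of 19, 10 of 15 and 11 of 15. CKAP2, ASPM, GOLGB1 and ZNF24 followed at 58.8 to 66.1% over the 3 lists together. The lowest were C15orf39 with 1 of 16, 2 of 22 and 3 of 22, and SEC61A1, the channel of the endoplasmic reticulum, with 3 of 19, 2 of 19 and 2 of 21. CREBZF, SLC7A5 (an amino acid transporter), DIDO1 and POLR1A lay between 13.6 and 16.4%. The base composition of these genes was not analysed here.

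The machinery of the mark carried DAACH sites itself, as most genes with a listed site did. Over all genes with any DRACH site, 64.8% held a DAACH site in KO replicate 1 (5850 of 9022), 66.9% in KO replicate 2 (6307 of 9428) and 65.0% in WT (6055 of 9316). Against these stand the gene lists below, none of which was tested, and whose genes' lengths and reads were not compared with those of other genes. Of 12 genes of m6A and m6Am writers, 10 held one in KO replicate 1, 8 in KO replicate 2 and 10 in WT, of 12, 11 and 11 that held any DRACH site, led by METTL16 (3, 3 and 6), RBM15B (1, 6 and 6), RBM15 (4, 6 and 5) and ZC3H13 (2, 6 and 4). Of 13 readers and demethylases, 12 held one in each list. HNRNPA2B1 had 5, 8 and 8 DAACH sites beside 3, 2 and 2 DGACH sites, and YTHDF2, which carries m6A transcripts to decay, had 5, 6 and 6 beside 11, 13 and 12. DAACH made up 30.8%, 28.4% and 34.3% of the writers' sites and 38.9%, 38.4% and 41.5% of the readers', beside 34.5%, 34.5% and 34.7% of all sites in KO replicate 1, KO replicate 2 and WT.

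Short-lived transcription factors held DAACH sites in 16, 13 and 13 of 20 genes (17, 15 and 17 with any DRACH site), and JUN alone had 21, 19 and 16 in a gene of a few kilobases. MCL1, a survival factor, had 6, 8 and 10, and SOX4 had 10, 10 and 10. Histone lysine methyltransferases and demethylases held them in 23, 25 and 24 of 27 genes (27, 27 and 26 with any), led by NSD1 (18, 17 and 17), KMT2D (7, 16 and 15) and KMT2A (16, 14 and 14). Genes of mitosis and replication held them in 19, 23 and 23 of 29 (25, 27 and 28 with any), at 40.8%, 41.1% and 45.1% of their sites, with exact 95% intervals of 33.8 to 48.2%, 35.3 to 47.1% and 38.9 to 51.4%. KIF11, a spindle motor, had 3, 5 and 7. These shares are descriptions.

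Ribosomal protein genes are short and abundantly transcribed, and 43, 40 and 40 of 78 held a DAACH site (59, 55 and 54 any DRACH site), 58 to 65 sites in all, with at most 4 in any gene of the list in WT (RPL13). Of 18 heat shock protein genes, 12, 12 and 11 held a DAACH site (15, 15 and 16 any DRACH site). They held 27, 62 and 39 DAACH sites, of which HSP90AA1 had 5, 15 and 8. KO replicate 2, the longest list, was the high library in both the list and that gene. It was also the highest for DGACH sites, with 56, 79 and 73 in the list and 5, 11 and 9 in HSP90AA1. Of 32 genes of decapping, deadenylation and decay, 23, 21 and 19 held a DAACH site (28, 28 and 26 any), with SMG1 (9, 5 and 7) and DDX6 (3, 4 and 6) in front. Of 29 chromatin remodellers and co-activators, 23, 27 and 26 did (28, 29 and 29 any), led by ARID1B (9, 10 and 10) and CREBBP (9, 15 and 9). Over these 9 lists the DAACH share of sites lay between 28.4 and 45.1%.

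Most sites listed on the mitochondrial genome were DAACH, a comparison added after the data were seen. On the mitochondrial genome 54 of 61 listed sites were DAACH in KO replicate 1, 62 of 75 in KO replicate 2 and 58 of 69 in WT, and 37 of 44 and 36 of 45 in MEF. These are 88.5%, 82.7%, 84.1%, 84.1% and 80%, with lower interval ends of 65.4% or more, against 32.1 to 34.7% outside the mitochondrial genome. Their pooled substituted share was 1.70%, 1.64% and 1.64% in KO replicate 1, KO replicate 2 and WT and 1.88% and 1.959% in MEF, beside 3.94 to 4.23% over the other DAACH sites of at least 200 reads. Median depth of the mitochondrial DAACH sites was 346 to 707 reads. RNR2, the large ribosomal RNA, held 11, 14 and 12 of them, ND4 9, 8 and 7, ND5 7, 7 and 9, and CYTB 7, 10 and 5. The letter composition of this genome was not analysed here.

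DAACH sites lay somewhat farther from gene ends than DGACH sites. Only sites with a distance to the annotated end of a coding gene entered. These were 10437, 12281 and 11289 of the 14045, 16453 and 15164 DAACH sites in KO replicate 1, KO replicate 2 and WT. For DGACH they were 19840, 23307 and 21225 of 26723, 31191 and 28499. Within 1000 nt of that end lay 18.5%, 18.8% and 18.1% of these DAACH sites in the same library order, against 21.3%, 21.5% and 20.7% of these DGACH sites. The difference averaged -2.69 ± 0.118 percentage points (SD, n = 3) and was below 0 in 3 of 3 libraries, with an exact sign-flip permutation p = 0.25, the smallest that 3 libraries allow. Over the same sites the median distance to the end was 3629, 3621 and 3823 nt for DAACH and 3239, 3326 and 3451 nt for DGACH. It was counted along the genome with introns.

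Another DAACH site lay close by more often at DAACH than at DGACH sites. Another DAACH site of the same list lay within 50 nt of 12.3%, 13.6%, 13.1%, 11.7% and 11.1% of DAACH sites in KO replicate 1, KO replicate 2, WT and the MEF replicates, and of 9.80%, 11.1%, 9.71%, 9.93% and 9.79% of DGACH sites. The difference averaged 2.30 ± 0.787 points and was above 0 in 5 of 5 (exact permutation p = 0.063), by a measure added after the data were seen. A DGACH site lay within 50 nt of 17.3 to 19.7% of DAACH sites and of 17.98 to 20.5% of DGACH sites, a mean difference of -0.734 points that turned to 0.610 among sites with at least 5 substituted reads.

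Inside the authors' m6Am regions, DAACH sites were found mostly in WT. The authors' list of 2360 m6Am regions held 10 DAACH sites of KO replicate 1 and 15 of KO replicate 2, against 44 of WT. That is 0.0712% and 0.0912% of the KO DAACH sites and 0.290% of the WT ones. KO over WT was 0.245 for replicate 1 (95% interval 0.124 to 0.487) and 0.314 for replicate 2 (0.175 to 0.564). For DGACH, with 27 and 30 sites in KO and 57 in WT, the ratios were 0.505 (0.320 to 0.798) and 0.481 (0.309 to 0.748). These intervals count listed sites and take in no spread between libraries. The DAACH and DGACH intervals overlap for each KO replicate, and the difference between them was not tested. How the regions were picked is not given in the sources used here, and the WT sample's label names the list, so KO and WT were not treated alike in it if WT reads picked the regions. With 1 WT library, genotype and library cannot be told apart.

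**Figure D5:**
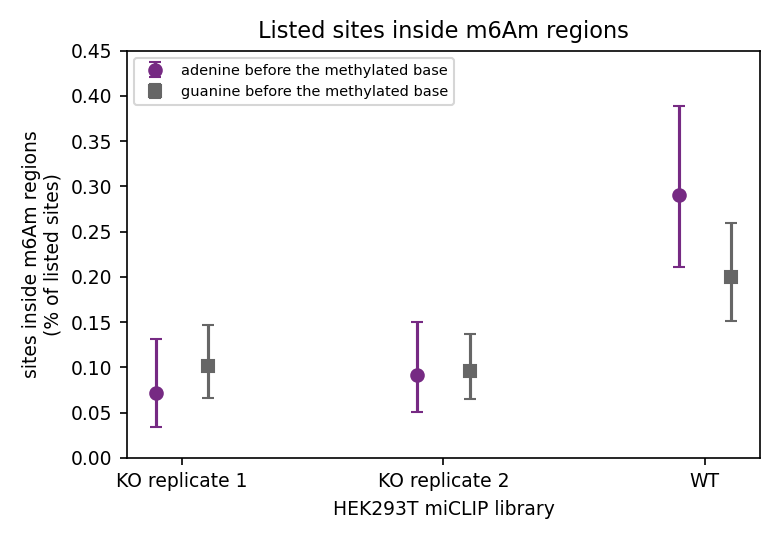
The y axis is the percent of listed sites that lie inside the authors' m6Am regions, for DAACH (purple) and DGACH (grey) sites of the 3 HEK293T libraries, with exact 95% binomial intervals as bars. DAACH lies at 0.0712% and 0.0912% in the KO replicates and at 0.290% in WT.

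The 44 WT sites in m6Am regions are described without a test. In no KO list were 41 of them found, while of all WT DAACH sites 8035 of 15164 (53.0%) were in no KO list. T, A and C stood last in 13, 20 and 11, whereas T led elsewhere. Their median depth was 50 reads and their pooled substituted share 3.67% (exact 95% interval 3.13 to 4.28%), while the 10 and 15 KO sites had median depths of 12 and 23 reads and shares of 8.92% and 10.4%. The SMC4 site shown above had 9 of 464 reads substituted in WT, the DDX3X site 7 of 185 and the RPS15 site 6 of 243. SMC4 is a condensin subunit, DDX3X an RNA helicase and RPS15 a ribosomal protein. Of the 21 WT sites that also lay in a RefSeq start window, 12 had their methylated A within 20 bases of the annotated start and 0 had it at the start base itself. By comparison, the CREBZF site shown above, outside those regions, had 6 of 96, 11 of 119 and 5 of 133 reads substituted in KO replicate 1, KO replicate 2 and WT.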

How the data were processed

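All 5 deposited miCLIP lists were used. Per the labels, 2 came from PCIF1 KO and 1 from WT HEK293T cells and 2 from MEF. Per its name field, each deposited row is 1 DRACH position with its motif, a count of reads and a count of substituted reads, called per library and not normalized. The authors' m6Am list gives regions with a score, which was not used. The submitters' processing notes name mm10 and GRCh38 (also as hg38) as builds and, without saying what each did, deepTools, bedtools, STAR and BWA 0.7.17. The caller is not given in the sources used here, nor are its settings. Across all lists the lowest values were 4 reads and 2 substituted reads, and the highest substituted share was 50%.

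Computed here were shares with exact (Clopper-Pearson) 95% intervals, pooled substituted shares (substituted reads over reads, summed over sites), exact permutation tests over libraries, and Fisher's exact test per site with Benjamini-Hochberg adjustment over all DRACH sites in both lists with at least 20 reads, called at an adjusted p under 0.05 (Python 3.11.15, pandas 2.3.3, numpy 2.4.6, scipy 1.17.1). A site was named by the 1 gene whose span held it, after genes known to lie on the other strand were dropped. The strand was known for 27305 of 59716 genes of the RefSeq GRCh38.p14 table. Named sites are the 10 with most substituted reads in all 3 HEK293T lists, the 10 of highest pooled share with at least 50 reads in each, the 10 genes with most sites in WT, up to 4 members of each gene list, 5 MEF sites, and up to 5 sites of smallest p per comparison. One gene and its sites, and some of the MEF sites of small p, are not described. The members and lists were chosen with earlier results of these data known. The remaining libraries of the series hold no m6A sites and were not used here.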

Additional observations from a re-analysis of the deposited data

Results flagged for a closer look

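At the fifth base of DAACH sites, T minus C in pooled substituted share ran opposite ways in HEK293T and MEF. It averaged 0.307 percentage points in HEK293T (0.0480 in KO replicate 1, 0.415 in KO replicate 2 and 0.458 in WT) and -0.122 points in MEF (-0.139 and -0.105). Every HEK293T library was above 0 and both MEF libraries were below it. The difference between the cell types was not tested, and over all 5 libraries the contrast had an exact sign-flip permutation p = 0.4375. The opposite signs were not kept under other settings: T minus C was above 0 in 5 of 5 libraries with at least 20 reads (mean 1.07 points) and with at least 5 substituted reads (1.56), and below 0 in 5 of 5 by the median of site shares (-2.15). Without the mitochondrial genome it averaged -0.143 points, above 0 in 2 libraries and below 0 in 3.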

How the results depend on the processing

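Over 27 results and 169 alternatives, 136 kept their direction, though often not their size, 16 values moved and 17 turned. Where tested, those that kept their direction also kept their side of the threshold for p. For the permutation tests that side was fixed in advance, since with so few libraries none could pass the threshold under any setting. It is thus no check of those results. Only the counts of sites called by Fisher's test could have changed sides. The DAACH share of the HEK293T lists, 34.6% as listed, was 30.3% with at least 5 substituted reads, 27.1% with at least 10, 33.0% with at least 20 reads and 32.6% with at least 50. In MEF it was 27.5%, 24.7%, 30.5% and 29.7%. Overlap with at least 5 substituted reads was 68.1% for KO replicate 1 in WT, 65.6% for KO replicate 2 in WT, 63.4% for KO replicate 2 in replicate 1 and 71.3% for MEF replicate 2 in replicate 1. With at least 20 reads it was 49.6%, 46.5%, 44.8% and 48.1%. Allowing 2 nt between positions could add no match, since the C of 2 DRACH motifs on 1 strand cannot lie 1 or 2 nt apart. A limit of 50% on the share could remove no site, since 50% was the highest share listed. Both settings are counted among the 136, and neither tests a result. Taken as medians of site shares, DAACH minus DGACH turned to 0.169 points, the first-base contrasts G minus A, G minus T and A minus T to -0.00692, -0.295 and -0.288, and at the fifth base T minus C and A minus C to -2.15 and -0.365. These are means over libraries, and several of these contrasts were exactly 0 in some libraries. A minus T at the fifth base turned to 1.92 with A first and 2.28 with T first. Shallow sites weigh fully in such medians, and the cause was not otherwise tested. Without the mitochondrial genome, chosen after seeing the data, T minus C at the fifth base turned to -0.143, and A minus T to 0.06251 with A first and 0.606 with T first. At the fifth base T minus A turned to 0.245 with at least 20 reads and 0.357 with at least 5 substituted reads. The DGACH neighbour difference turned to 0.610 and the difference within 50 nt of a start to -0.0185 with at least 5 substituted reads; the cause was not tested. Without WT, DAACH minus DGACH near starts was -0.0177 points and inside m6Am regions -0.0174, against 0.0155 and 0.0184 with it. Leaving out each library in turn gave -0.0177 to 0.0333 points near starts and -0.0174 to 0.0426 inside m6Am regions, and turned no other direction. Fisher's test called 0 DAACH sites without a read minimum and at 50 reads. No paired analysis was possible because KO and MEF share replicate numbers but are different cells, and WT has 1 library. Depth limits single sites: a median DAACH site has 27 to 38 reads and 3 substituted reads.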
